A study of Mus musculus with 23 samples.

Results

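Dlk1, Rtl1, Dio3 and Dio3os are transcripts of the Dlk1-Dio3 imprinted domain of mouse chromosome 12. They were taken by symbol, with earlier results of these data known, and all 4 were found among the 26183 gene symbols of the deposited tables. Dlk1, Rtl1 and Dio3 encode proteins, whereas Dio3os is a noncoding RNA transcribed from the opposite strand next to Dio3, so a name such as paternally expressed coding genes does not cover it. The paternal bias was measured directly for Dlk1, from fewer reads for Dio3os and Dio3, and not at all for Rtl1, which had 0 allele-assigned reads in each embryo.

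In this domain the protein-coding genes are known to be expressed mainly from the paternal chromosome and the noncoding RNAs Meg3, Rian and Mirg from the maternal one. The choice is set by DNA methylation that the paternal copy acquires in sperm at a control region between Dlk1 and Meg3. ZFP57 is a zinc finger protein that binds a methylated hexamer in such control regions and keeps their methylation in the early embryo. DLK1 is a membrane protein with epidermal growth factor repeats that is known to restrain the differentiation of fat cell precursors and is abundant in fetal liver, RTL1 is a protein derived from a retrotransposon that is needed in placental vessels and fetal muscle, and DIO3 inactivates thyroid hormone.

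RNA was sequenced from 23 whole live mouse embryos at E13.5 (embryonic day), with 1 library per embryo. Zfp57+/- or Zfp57-/- mothers of strain 129 were crossed with Zfp57+/- fathers mainly on the DBA/2J background, so every embryo was a 129/DBA hybrid. M+Z+ embryos (Zfp57-/+ in the sample titles, headed WT in the tables) had the product of the mother's and of the embryo's own gene, M-Z+ embryos (also Zfp57-/+) came from mothers that lacked Zfp57 and carried a functional paternal copy, and M-Z- embryos (Zfp57-/-) lacked both sources. There were 6 M+Z+, 3 M-Z+ and 4 M-Z- females, and 4 M+Z+, 3 M-Z+ and 3 M-Z- males. The mutation was constitutive, so no cell type of an M-Z- embryo kept a functional copy, and such an embryo always came from a mother that also lacked it. Whether M+Z+ embryos had 1 or 2 functional copies is not settled by the labels and headers. Litters were not given, so the p-values measure the spread between these embryos. The paper gives primed names to some M+Z+ embryos, among them most M+Z+ males. The other M+Z+ embryos share a number series with the mutants. What the primes stand for is not stated, nor which replicate has which name. If replicates follow the order of the names, M+Z+ embryos numbered 4 and above are the unprimed ones. Some comparisons are therefore also given with only those.

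Total counts ran from 15.2 to 24.1 M (M, mega; median 17.4 M), at which 3 counts correspond to 0.125 to 0.198 CPM (the count of a gene over the embryo's total count in M), and 2.46 to 3.94 M reads were assigned to an allele. Zfp57 itself differed by a log2 fold change of -1.02 ± 0.138 (SE) in female and -1.33 ± 0.115 in male M-Z- embryos against M+Z+ embryos, with adjusted p of 0.000399 and 4.69e-05. Zfp57 reads remained in M-Z- embryos, at 25.5 to 35.3 CPM against 52.7 to 99.1 CPM in M+Z+ embryos. Counts per gene do not show whether these reads fall in the deleted part. Male M-Z- replicate 2 stood apart from the other libraries. Its erythroid markers summed to 36070 CPM against 10930 to 21180 CPM in the other embryos, and its median gene was 0.106 lower on the log2 CPM scale than in male M+Z+ embryos. The male M-Z- fold changes of the members and of the named RNAs of their domain against M+Z+ embryos are therefore also given without it. Markers of muscle, liver, cartilage, endothelium and neurons were detected in all groups. As whole embryos were sequenced, fewer cells of a type and less RNA per cell cannot be told apart.

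Dlk1 lies at chr12:110691033-110701546 of mm9 on the plus strand and has 4811 exonic bases in 6 exon blocks. Its upstream sequence is shown because the 3 members with a RefSeq promoter entry differed in CpG content. The 250 bases before each start (RefSeq, GRCm38.p6, each with 1 exact match in mm9, 5′ to 3′ on the strand of the gene) are printed below with CG in capitals. They lie at chr12:110690783-110691032 on the plus strand for Dlk1, at chr12:111517190-111517439 on the plus strand for Dio3 and at chr12:111516279-111516528 on the minus strand for Dio3os.
Dlk1: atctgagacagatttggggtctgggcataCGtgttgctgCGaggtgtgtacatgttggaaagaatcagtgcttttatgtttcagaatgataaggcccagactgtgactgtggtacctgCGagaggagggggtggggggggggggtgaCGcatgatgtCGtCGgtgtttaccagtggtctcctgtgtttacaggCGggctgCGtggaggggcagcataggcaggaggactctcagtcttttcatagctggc
Dio3: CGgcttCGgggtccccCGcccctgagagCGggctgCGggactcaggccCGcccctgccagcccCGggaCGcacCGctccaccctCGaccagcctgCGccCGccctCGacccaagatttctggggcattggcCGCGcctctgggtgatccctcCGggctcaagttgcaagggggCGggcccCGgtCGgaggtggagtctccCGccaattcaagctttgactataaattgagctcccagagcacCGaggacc
Dio3os: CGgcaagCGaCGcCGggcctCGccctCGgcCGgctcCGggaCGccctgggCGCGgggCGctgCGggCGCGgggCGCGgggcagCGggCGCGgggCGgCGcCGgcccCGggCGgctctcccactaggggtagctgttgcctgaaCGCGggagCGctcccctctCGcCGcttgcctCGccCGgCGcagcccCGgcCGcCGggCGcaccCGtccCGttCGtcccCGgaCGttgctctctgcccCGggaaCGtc
In the window of 300 bases that adds the first 50 of the transcript, Dlk1 held 9 CpG, Dio3 25 and Dio3os 53, against a median of 7 over 32851 promoters of the same length. Of all promoters, 45.8% held at least as many as Dlk1, 18.4% at least as many as Dio3 and 0.451% at least as many as Dio3os. The hexamer TGCCGC, the letters known for ZFP57, was searched on both strands (GCGGCA on the other) and was found 0 times in these 3 windows, while 11.6% of promoters held it.

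Dlk1 was the most abundant of the 4 transcripts, and all M-Z- embryos of either sex had less of it than every other embryo. In females it ranged from 548 to 793 CPM in M+Z+ embryos, with a median of 630.1 CPM. It was 629.8, 669 and 528 CPM in the 3 M-Z+ females and 121, 103.6, 119 and 132 CPM in the 4 M-Z- females. The M-Z- females lay far below both other groups, which overlapped each other. In males it was 627, 628, 812 and 742.5 CPM in M+Z+, 807, 744 and 696 CPM in M-Z+, and 99.9, 116 and 166 CPM in M-Z- embryos. The M-Z- males were again all lower, and the M+Z+ and M-Z+ males overlapped. Dlk1 fell in M-Z- females by 2.46 on the log2 scale (SE 0.115, n = 4 and 6, adjusted p = 1.26e-09 by edgeR's quasi-likelihood test with Benjamini-Hochberg adjustment over all genes tested), which left 18.2% of the M+Z+ level. In M-Z- males it fell by 2.43 (SE 0.155, n = 3 and 4, adjusted p = 7.90e-06, edgeR), which left 18.6%, and the log2 fold change was -2.40 without replicate 2.

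**Figure D1:**
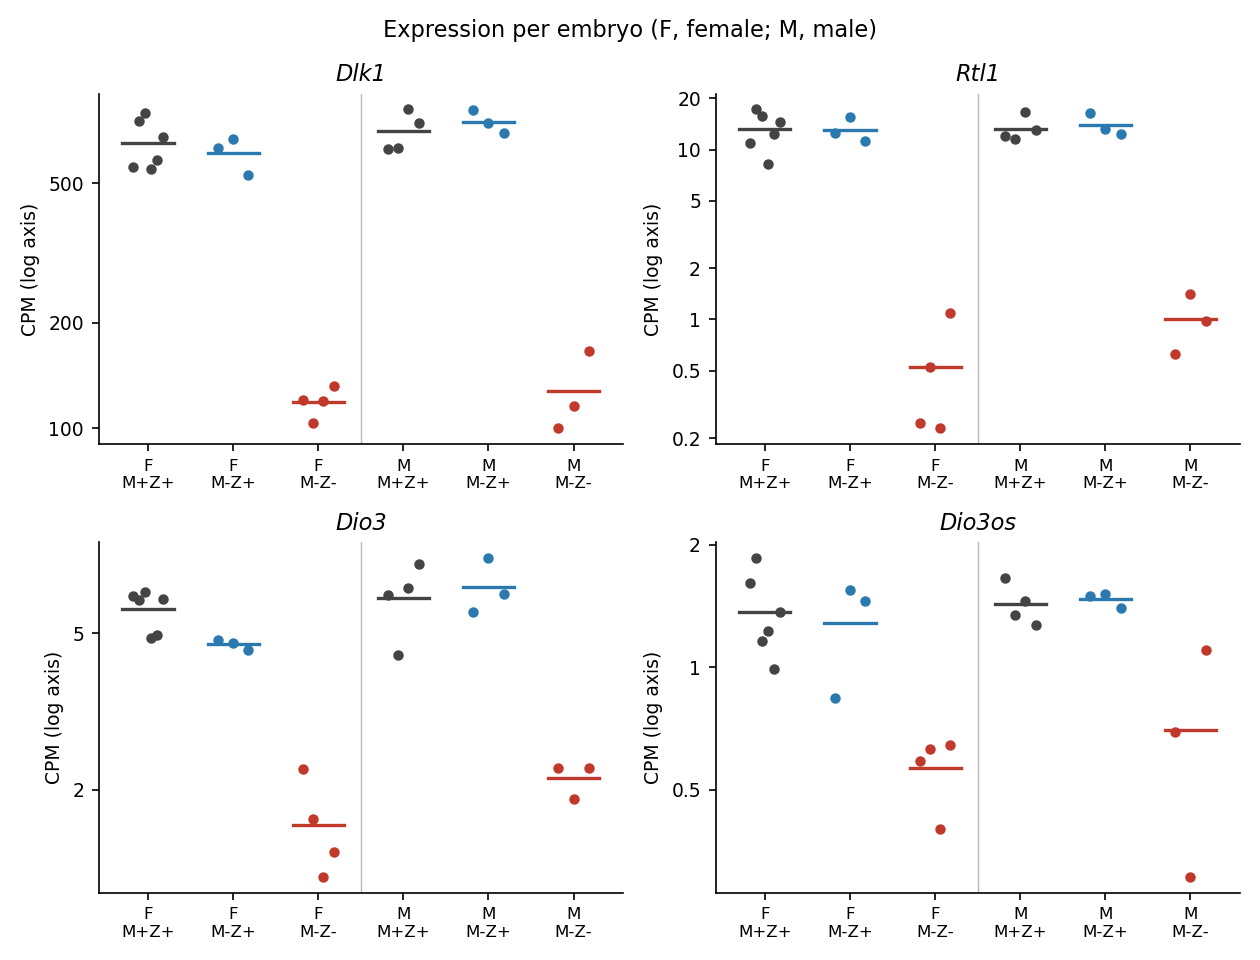
Expression of Dlk1, Rtl1, Dio3 and Dio3os in each embryo, in CPM on a log axis, for the 3 genotypes of females (F) and males (M). Each point is 1 embryo. The M-Z- embryos lie below all others of their sex in each of the 4 panels, by the widest gap for Rtl1 and the narrowest for Dio3os.

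Rtl1 lies on the minus strand at chr12:110827403-110838540, with 6358 exonic bases in 2 exon blocks and a start 136.4 kb after that of Dlk1. Maternally expressed microRNA genes are transcribed across it from the other strand, so each of these miRNAs is fully complementary to the Rtl1 transcript. The RefSeq mature miRNAs were matched to mm9, and 11 of 13 lay within an Rtl1 exon on the opposite strand, with 11 distinct seeds. The 5 below, 1 from each of 5 hairpins, are shown with the seed (bases 2 to 8) in capitals. They lie at chr12:110828669-110828689, chr12:110829991-110830012, chr12:110831098-110831119, chr12:110832775-110832796 and chr12:110833541-110833562, in that order, all on the plus strand.
miR-431-5p: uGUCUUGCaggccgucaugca
miR-433-3p: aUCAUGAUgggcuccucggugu
miR-127-3p: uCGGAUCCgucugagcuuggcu
miR-434-3p: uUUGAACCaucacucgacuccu
miR-136-5p: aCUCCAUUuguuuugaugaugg
The libraries were not made for small RNAs, so none of these mature miRNAs was measured.

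Rtl1 had the deepest fall of the 4 transcripts and came close to absent. In M+Z+ females it ranged from 8.28 to 17.2 CPM with a median of 13.49 CPM, and in M-Z+ females it was 12.6, 15.5 and 11.2 CPM. In the 4 M-Z- females it was 0.245, 0.526, 0.228 and 1.09 CPM, from 5, 10, 4 and 22 reads. These embryos did not overlap any other female, and replicate 4 had the highest level among them. In males it was 12, 11.6, 16.6 and 12.97 CPM in M+Z+, 16.3, 13.2 and 12.3 CPM in M-Z+, and 0.63, 1.41 and 0.982 CPM in M-Z- embryos, the last from 10, 23 and 16 reads. Rtl1 fell by 4.62 on the log2 scale (SE 0.312, adjusted p = 6.94e-08, edgeR) in M-Z- females, which left 4.06% of the M+Z+ level. In males it fell by 3.67 (SE 0.246, adjusted p = 7.90e-06, edgeR), which left 7.88%, and the log2 fold change was -4.03 without replicate 2. The female log2 fold change ranged from -5.28 to -4.37 when 1 embryo was left out. Counting error alone is large at these read numbers, so the M-Z- levels are less precise than those of Dlk1.

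The transcript 6430411K18Rik runs across Rtl1 from the other strand, with all of its 1315 exonic bases inside Rtl1 exons (chr12:110829747-110831061). It went the other way. Its mean was 3.52 CPM in M+Z+ and 7.49 CPM in M-Z- females, a rise of 1.08 on the log2 scale (adjusted p = 0.00148, edgeR), and 3.78 and 9.87 CPM in males (log2 fold change 1.45, adjusted p = 0.087). In single M-Z- males it was 8.76, 15.1 and 5.77 CPM, the last within the M+Z+ range of 2.66 to 5.82 CPM, and the log2 fold change was 0.95 without replicate 2 (adjusted p = 0.216, edgeR). The male rise was called without M-Z- replicate 3 (1.75, adjusted p = 0.00446) or M+Z+ replicate 4. Its count was 15.5 to 44.9% of that of Rtl1 in M+Z+ embryos and 588 to 3300% in M-Z- embryos. The authors counted reads by strand, and in females Tsix, which shares 1959 exonic bases with the far more abundant Xist on the other strand, had 0.14 to 0.445% of its count. On the strand of Rtl1 itself, the hairpin symbol Mir3071 (chr12:110833528-110833607) lies inside an Rtl1 exon, so a read there counted for both. Mir3071 had 10 to 17 counts in M+Z+ and 0 to 1 in M-Z- females, and 8 to 16 and 0 counts in males, and is no separate measurement.

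Dio3 lies on the plus strand at chr12:111517440-111519307 as a single exon of 1868 bases, 826.4 kb after the Dlk1 start. It fell less than Dlk1 and Rtl1. In M+Z+ females it ranged from 4.87 to 6.36 CPM with a median of 6.12 CPM, and in M-Z- females it was 2.25, 1.68, 1.20 and 1.39 CPM. In M+Z+ males it was 6.27, 4.41, 6.51 and 7.49 CPM, and in M-Z- males 2.27, 1.90 and 2.27 CPM. The M-Z- embryos of both sexes lay below every M+Z+ and M-Z+ embryo. The log2 fold change was -1.82 ± 0.169 (SE, adjusted p = 2.93e-06, edgeR) in females, which left 28.4%, and -1.49 ± 0.209 (adjusted p = 0.00405, edgeR) in males, which left 35.7%. Without male M-Z- replicate 2 the male value was -1.44.

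Dio3os lies on the minus strand at chr12:111513595-111516278, with 1279 exonic bases in 4 exon blocks and 0 bases of exon shared with Dio3. It was the least abundant of the 4 in M+Z+ and M-Z+ embryos, and its log2 fold changes were the smallest. In M+Z+ females it ranged from 0.99 to 1.86 CPM with a median of 1.30 CPM, from 19 to 32 reads, and in M-Z- females it was 0.587, 0.631, 0.3997 and 0.643 CPM, from 12, 12, 7 and 13 reads. In males it was 1.66, 1.35, 1.45 and 1.27 CPM in M+Z+ and 0.693, 0.306 and 1.10 CPM in M-Z- embryos. No M-Z- embryo reached an M+Z+ embryo of its sex, but male replicate 3 came near. The log2 fold change was -1.26 ± 0.279 (SE, adjusted p = 0.0317, edgeR) in females. In males it was -1.003 ± 0.341 (adjusted p = 0.183, unadjusted 0.0113), which did not pass the test. The female result also failed without any 1 of 7 of the 10 embryos compared (M+Z+ replicates 1, 2 and 6 and each M-Z- embryo), with adjusted p up to 0.120, and with only M+Z+ embryos numbered 4 or above (-1.05, adjusted p = 0.144). The male result passed without M-Z- replicate 3 (log2 fold change -1.47, adjusted p = 0.0313), and was -0.68 without replicate 2.

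A gene was called where its adjusted p was below 0.05 and its log2 fold change at least 0.5 in size. By this rule 4 of the 4 members were lower in M-Z- than in M+Z+ females, against a background of 0.279% of the 16871 genes tested, and 3 of 4 in males, against 0.126% of 16664 genes. The median log2 fold change of the members was -2.14 in females and -1.96 in males, beside -0.00358 and 0.00167 over all genes tested. Groups without overlap, M-Z- below M+Z+, were seen for 4 of 4 members in each sex, and for 2.05% of genes in females and 6.36% in males.

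Against the M-Z+ embryos, whose mothers also lacked Zfp57, the results were alike in size. On chromosome 17, which carries Zfp57, lay 128 of the 146 genes called for a shift of the allelic share between these groups in males and 2 of 15 in females. The median over its genes of the paternal read share minus 0.5 was -0.182 to -0.142 in M-Z- and -0.0326 to -0.00118 in M-Z+ males, and -0.0459 to -0.0335 and -0.00542 to -0.00024 in females, so it did not overlap in either sex. Dlk1, Rtl1 and Dio3 were called lower in both sexes, where 0.0711% of genes were called lower in females and 0.066% in males. The log2 fold changes were -2.35, -4.60 and -1.50 in females and -2.50, -3.71 and -1.56 in males. Dio3os had -1.16 ± 0.322 (SE, adjusted p = 0.217, edgeR) in females and -1.01 ± 0.364 (adjusted p = 0.480) in males and was not called. The male Dio3 call did not hold without M-Z+ replicate 2 (log2 fold change -1.42, adjusted p = 0.0567). All 4 members again had each M-Z- embryo below each M-Z+ embryo in both sexes, as did 5.86% of genes in females and 8.74% in males. The M+Z+ and M-Z+ comparisons share their M-Z- embryos, so they do not support each other.

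M-Z+ embryos, which lacked only the mother's product, kept the 4 transcripts near the M+Z+ level. None of the 4 was called in either sex, where 0.0593% of genes in females and 0.048% in males were called in either direction. The log2 fold changes of Dlk1, Rtl1, Dio3 and Dio3os were -0.11, -0.03, -0.31 and -0.11 in females, and all 4 lay between 0.01 and 0.07 in males. Dio3 was 4.82, 4.72 and 4.54 CPM in M-Z+ females, each below all 6 M+Z+ females, a pattern held by 1.03% of genes. Its log2 fold change of -0.31 ± 0.163 (SE, adjusted p = 0.733, edgeR) did not pass the test.

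The sexes were compared to ask whether the members respond differently in males. In M+Z+ embryos females and males differed by log2 values of -0.11, -0.01, -0.10 and -0.07 for Dlk1, Rtl1, Dio3 and Dio3os (adjusted p 0.951 to 0.997), and none was called, against 0.0817% of genes. The M-Z- effect in males minus that in females was 0.02 ± 0.189 (SE) for Dlk1, 0.95 ± 0.512 for Rtl1, 0.32 ± 0.265 for Dio3 and 0.25 ± 0.428 for Dio3os on the log2 scale. The Rtl1 value had an unadjusted p of 0.077 and an adjusted p of 0.774 (edgeR), and it was 0.59 without male M-Z- replicate 2. When 1 embryo was left out the Rtl1 value ranged from 0.59 to 1.605. The Dlk1 value then ranged from -0.195 to 0.18 and the Dio3os value from -0.22 to 0.58, so both turned sign. No member passed, nor did any gene (0.0% of 17139 by edgeR, 1107 genes at an unadjusted p below 0.05).

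Levels of different genes were compared per exonic length, as TPM (count per exonic base, scaled to a fixed total in each embryo). Among M+Z+ females the mean TPM was 298 (range 252 to 348) for Dlk1, 6.82 (5.78 to 7.49) for Dio3, 4.57 (2.89 to 5.82) for Rtl1 and 2.36 (1.80 to 3.12) for Dio3os. Among M+Z+ males it was 312 (275 to 355), 7.08 (4.98 to 8.83), 4.46 (3.84 to 5.48) and 2.39 (2.18 to 2.78), in the same order. The ranges of Dio3 and Rtl1 overlapped in both sexes, those of Rtl1 and Dio3os in females only, and Dlk1 stood above the rest. In M-Z- embryos Rtl1 moved from the third to the last place. Its mean TPM there was 0.18 in females and 0.324 in males, below Dio3os at 0.981 and 1.15, Dio3 at 1.94 and 2.39 and Dlk1 at 54.9 and 54.7, and no neighbours in this order overlapped.

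The unequal falls were tested as ratios of 2 members within each embryo, on the log2(CPM + 0.5) scale, with exact two-sided permutation tests over embryos and Benjamini-Hochberg adjustment over the 12 tests (6 pairs in 2 sexes). The 6 ratios are formed from 4 members, so they are not independent of each other. In females all 6 ratios differed between M-Z- and M+Z+ embryos, each at the smallest exact p that 4 embryos against 6 allow (0.00476, adjusted 0.00952). The Dlk1 to Rtl1 ratio was 1.34 higher in M-Z- females, and the Dlk1 to Dio3 and Dlk1 to Dio3os ratios were lower by log2 values of -0.86 and -1.64. The largest shift was that of Rtl1 to Dio3os, at -2.98. In males 5 of 6 ratios differed, each at the smallest exact p that 3 against 4 allow (0.0286, adjusted 0.0312), with a Dlk1 to Rtl1 shift of 0.73 and a Rtl1 to Dio3os shift of -2.48. The Dio3 to Dio3os ratio shifted by -0.77 in females and -0.58 in males, the latter with overlap (exact p = 0.114). Without male M-Z- replicate 2 the male Dlk1 to Rtl1 shift was 0.97. The size of that shift depended on the pseudocount, as Rtl1 was near or below it in M-Z- embryos. With pseudocounts of 0.1 and 1 it was 2.14 and 0.79 in females and 1.16 and 0.36 in males, the last of which did not pass (exact test, adjusted p = 0.114). A pseudocount shrinks the log2 fall of a scarce transcript more than that of an abundant one. With 0.1 and 1 the Dlk1 to Dio3 shift was -0.65 and -1.06 in females and -1.03 and -1.31 in males. The Dlk1 to Dio3os shift was -1.31 and -1.84 in females and -1.42 and -1.94 in males. With a pseudocount of 0.1 the groups overlapped for Dlk1 to Dio3 and Dio3 to Dio3os in females, though both passed (exact tests, adjusted p = 0.0286 and 0.0229). The falls were in the order Rtl1, Dlk1, Dio3 and Dio3os in both sexes, and in males the last step was not resolved and the first not with a pseudocount of 1.

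**Figure D2:**
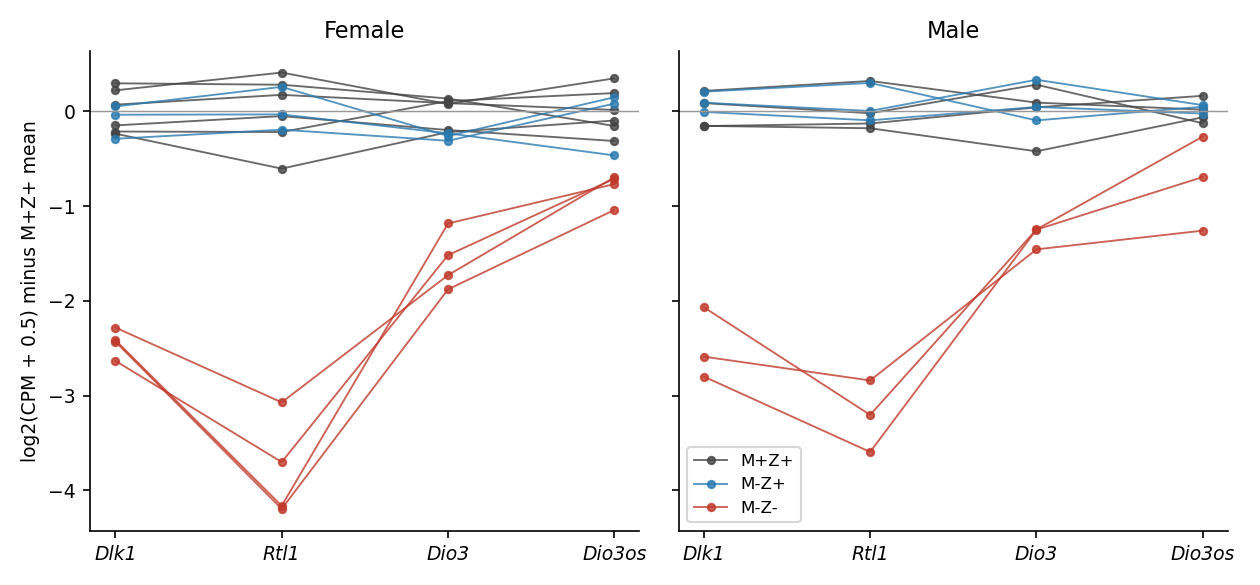
Difference of each embryo from the mean of the M+Z+ embryos of its sex, on the log2(CPM + 0.5) scale, for the 4 transcripts in females and males. Each line is 1 embryo. M+Z+ and M-Z+ lines run near 0, while M-Z- lines dip deepest at Rtl1 and come back towards 0 at Dio3os.

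Reads over strain variants were split into maternal (129) and paternal (DBA) alleles to ask which copy had changed. For Dlk1 the loss was on the paternal allele, and the maternal allele kept its low output. Paternal reads numbered 1504 to 2152 (median 1692) in M+Z+ females, 1660, 1864 and 1417 in M-Z+ females and 230, 152, 202 and 248 in M-Z- females. Maternal reads numbered 113 to 208 (median 147.5), then 133, 152 and 131, then 198, 152, 162 and 204. The paternal reads of M-Z- females thus lay below those of both other groups, which overlapped each other, and the maternal reads of all 3 groups overlapped. In males, paternal reads were 2411, 1734, 2312 and 1932 in M+Z+, 1890, 1722 and 1765 in M-Z+ and 137, 150 and 205 in M-Z- embryos. Maternal reads were 182, 181, 194 and 172, then 152, 139 and 145, then 119, 151 and 240.

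In RPM (allele reads of a gene over the embryo's allele-assigned reads in M), the paternal output of Dlk1 was 626 ± 111 (SD, n = 6) in M+Z+, 592 ± 82.1 (n = 3) in M-Z+ and 70.5 ± 12.6 (n = 4) in M-Z- females. The maternal output was 54.7 ± 12.4, 49.9 ± 4.23 and 60.6 ± 5.74 in the same groups. In males the paternal output was 687 ± 81.3, 703 ± 60.9 and 65.2 ± 12.5, and the maternal output 60.5 ± 9.80, 57.0 ± 4.36 and 67.4 ± 22.9. The paternal output was called lower in M-Z- against M+Z+ embryos (log2 fold change -3.21 ± 0.163, SE, adjusted p = 7.36e-10 in females and -3.42 ± 0.138, adjusted p = 6.70e-13 in males, edgeR), where 0.0263% and 2.19% of genes were. The maternal output was not called (0.09 ± 0.144, adjusted p = 0.901, and 0.14 ± 0.183, adjusted p = 0.801), where 0.493% and 2.62% of genes were called in either direction. Of the 163 male genes called for a shift of the allelic share, 136 lay on chromosome 17 and 5 on chromosome 12. Without male M-Z- replicate 2 the male values of Dlk1 were -3.38 and 0.20. Without replicate 3 they were -3.58 and -0.16, so the sign of the maternal value turned. Against M-Z+ embryos the paternal output of Dlk1 was called lower as well (log2 fold change -3.08 ± 0.174, SE, in females and -3.41 ± 0.142 in males), where 0.0132% and 1.9% of genes were.

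**Figure D3:**
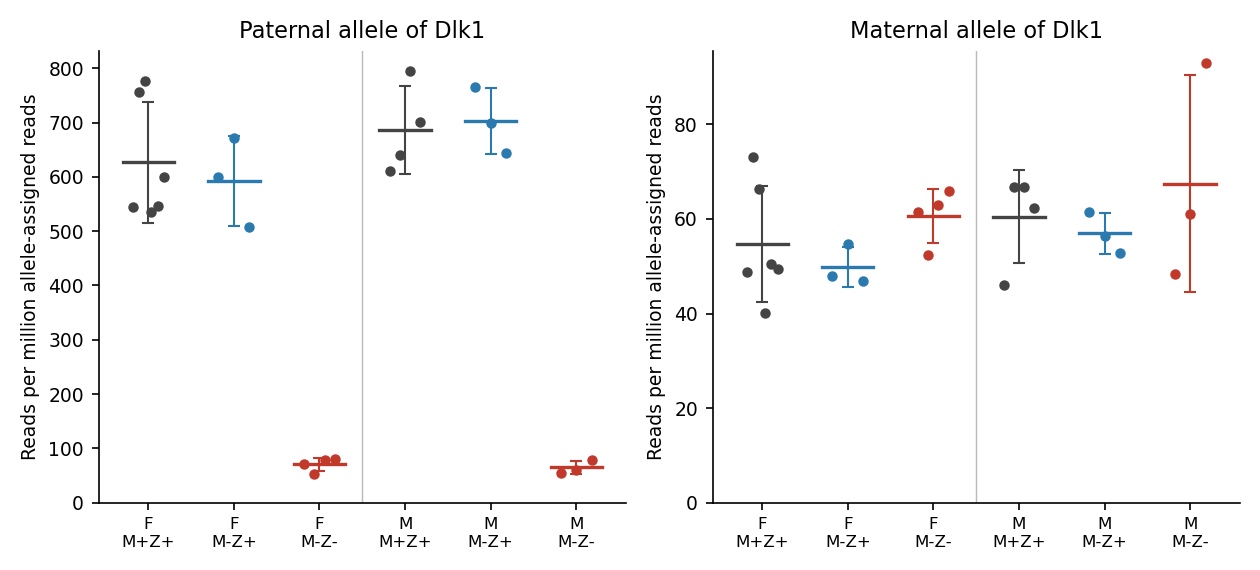
Output of the paternal and the maternal allele of Dlk1 in each embryo, in RPM (reads per M allele-assigned reads), for the 3 genotypes of females (F) and males (M). Points are embryos, bars the group mean with SD. The paternal allele drops from means of 626 and 687 in M+Z+ to 70.5 and 65.2 in M-Z- embryos, and the maternal allele stays between 49.9 and 67.4 in all 6 group means.

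The P-score, the paternal share of allele-assigned reads minus 0.5, summarises both alleles (0.5 when all reads are paternal, 0 when the alleles are equal). For Dlk1 it was 0.420 ± 0.00649 (SD, n = 6) in M+Z+, 0.422 ± 0.00571 (n = 3) in M-Z+ and 0.0353 ± 0.0246 (n = 4) in M-Z- females. In males it was 0.419 ± 0.0102 (n = 4), 0.425 ± 0.000791 (n = 3) and -0.00194 ± 0.0372 (n = 3). Single M-Z- embryos had 0.0374, 0.0, 0.055 and 0.0487 in females and 0.0352, -0.00166 and -0.0393 in males, that is near equal alleles and on both sides of 0 in males. The differences from M+Z+ of -0.385 and -0.421 had exact permutation p of 0.00476 and 0.0286, the smallest these group sizes allow, and the count test called both (0.309% of genes lower in females and 2.43% in males). Against M-Z+ embryos they were -0.387 (exact p = 0.0286) and -0.427 (exact p = 0.10, in a design of 3 against 3 that cannot go below it). M-Z+ embryos differed from M+Z+ embryos by 0.00185 (exact p = 0.714) and 0.00595 (exact p = 0.429). The effect of M-Z- differed between the sexes by -0.0361 (exact permutation p = 0.186).

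Pooled over embryos, 92.0% of the Dlk1 allele reads of M+Z+ females were paternal (95% Wilson interval 91.5 to 92.4), so 8.04% were maternal. In M-Z- embryos the paternal share was 53.8% (51.3 to 56.2) in females and 49.1% (46.0 to 52.2) in males. These intervals cover counting error only. For a single embryo they were 1.97 to 12.1 percentage points wide.

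Dio3os had far fewer allele reads and a weaker paternal excess. Of 114 reads in M+Z+ females 85 were paternal (74.6%, interval 65.9 to 81.7), and of 82 in M+Z+ males 60 (73.2%, 62.7 to 81.6). In M-Z- embryos 14 of 39 reads were paternal in females (35.9%, 22.7 to 51.6) and 12 of 26 in males (46.2%, 28.8 to 64.5). Single M+Z+ females ranged from 47.4% (9 paternal and 10 maternal reads) to 100% paternal. Each M-Z- female gave 6 to 13 reads, and the 1 with a paternal excess had 6 paternal and 5 maternal reads. Dio3os missed the minimum of 20 allele reads per embryo on average that the share test required. With a minimum of 10 the log2 change of the share was -2.42 ± 0.772 (SE, adjusted p = 0.764, edgeR) in females and -1.60 ± 0.744 (adjusted p = 0.642) in males, which did not pass. The paternal output had log2 fold changes of -2.08 (adjusted p = 0.0631) and -1.62 (adjusted p = 0.066) and the maternal output 0.27 and 0.02, none of them called. When 1 male was left out the paternal value ranged from -1.78 to -1.48 and the maternal value from -0.57 (without M-Z- replicate 3) to 0.35 (without M-Z- replicate 2), and the maternal sign turned without any 1 of 3 males (M+Z+ replicates 1 and 2 and M-Z- replicate 3).

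Dio3 had 0 to 18 allele reads per embryo. Its paternal reads were 31 of 34 in M+Z+ and 5 of 6 in M-Z- females, and 24 of 32 and 1 of 2 in males. The M-Z- interval of 43.7 to 97.0% in females spans equal alleles and the M+Z+ share, so a shift was not detectable at this depth.

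**Figure D4:**
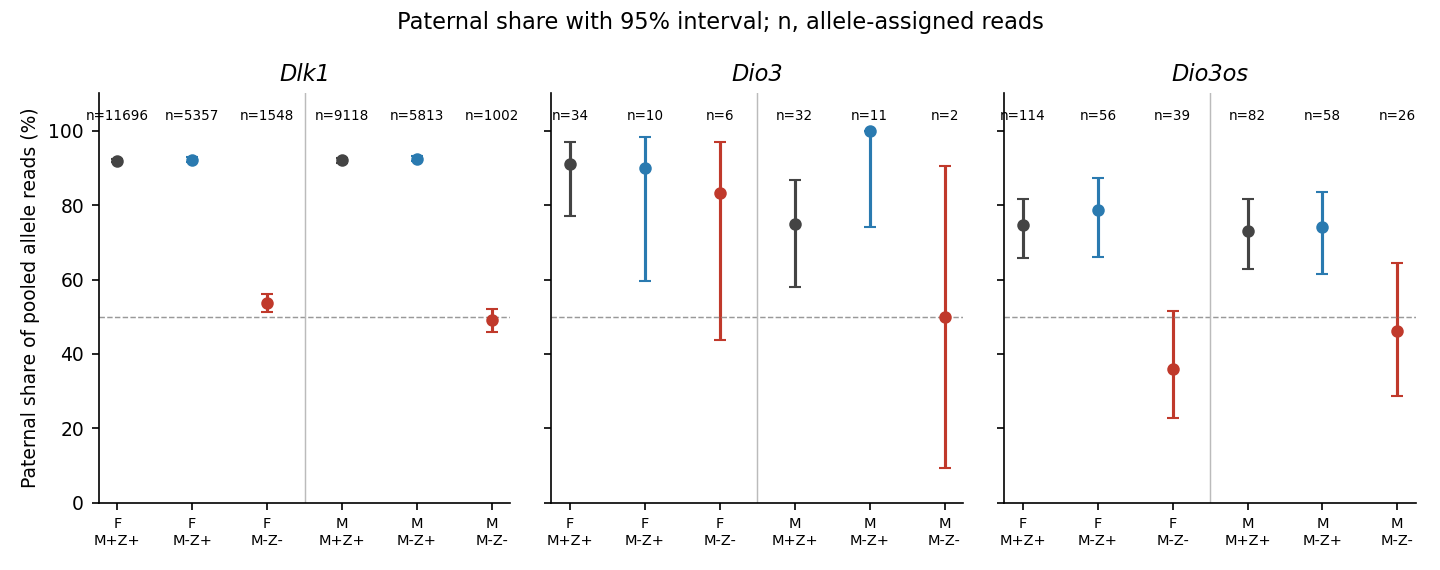
Paternal share of the pooled allele reads of Dlk1, Dio3 and Dio3os by group, in percent, with 95% Wilson intervals and the number of allele-assigned reads (n). The dashed line marks equal alleles. Dlk1 drops from 92.0% to 53.8% and 49.1%, the Dio3os estimates drop with wider intervals, and the Dio3 intervals of M-Z- embryos span equal alleles.

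The reach of the change along the chromosome was followed from Begain to Dio3, 77 annotated genes of which 32 were tested. The members and Mir3071, which shares reads with Rtl1, made up all genes called lower there in M-Z- against M+Z+ embryos, 5 in females and, without Dio3os, 4 in males. In the other direction 11 genes were called higher in females, where 0.285% of all genes tested were, among them Meg3 (log2 fold change 1.05 ± 0.0989, SE, from 975 to 2025 CPM), Rian (0.86 ± 0.0642) and Mirg (1.27 ± 0.0896), long noncoding RNAs known to be expressed from the maternal chromosome. The paternal output of Meg3 was 7.50 RPM in M+Z+ and 1464 RPM in M-Z- females, and its maternal output differed by a log2 fold change of -0.06 ± 0.0999 (adjusted p = 0.908, edgeR) and was not called. In males 5 were called higher, against 0.264% of all genes, namely Meg3 (1.36 ± 0.196), Rian (0.96 ± 0.0904), AF357359, Mirg (1.16 ± 0.0942) and Mir410. Without M-Z- replicate 2 Meg3, Rian, AF357359, Mirg and Mir410 had 1.23, 0.86, 0.86, 1.12 and 1.44 and stayed called, as did Mir3071 on the lower side. All 5 belong to a list of other domain transcripts of which 19 were tested in males, and of these 11 were called higher without M-Z- replicate 3, where 2.43% of all genes were. Meg3 was 744, 956, 764 and 1466 CPM in the 4 M+Z+ males, the last far above the others, and its log2 fold change was 0.80 when that embryo alone was kept for comparison, in a fit that assumes it to vary like the other groups. In that fit Meg3 was not called (adjusted p = 0.9994, edgeR), and 0 genes of the list and 0 of all genes were called higher, with 429 genes at an unadjusted p below 0.05 in either direction. Begain, at -420.6 kb from the Dlk1 start, had -0.50 ± 0.0901 in females (adjusted p = 0.00918), just short of the minimum change, and -0.38 in males (-0.52 without M-Z- replicate 2, not called). It was called lower in females without any 1 of 5 embryos (M+Z+ replicates 4, 5 and 6 and M-Z- replicates 1 and 3), and also against M-Z+ females (-0.71 ± 0.104, adjusted p = 0.00194). The 10 nearest tested genes before the domain and the 10 after it included 0 called in either sex, with log2 fold changes of -0.16 to 0.44 in females and -0.41 to 0.69 in males.

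**Figure D5:**
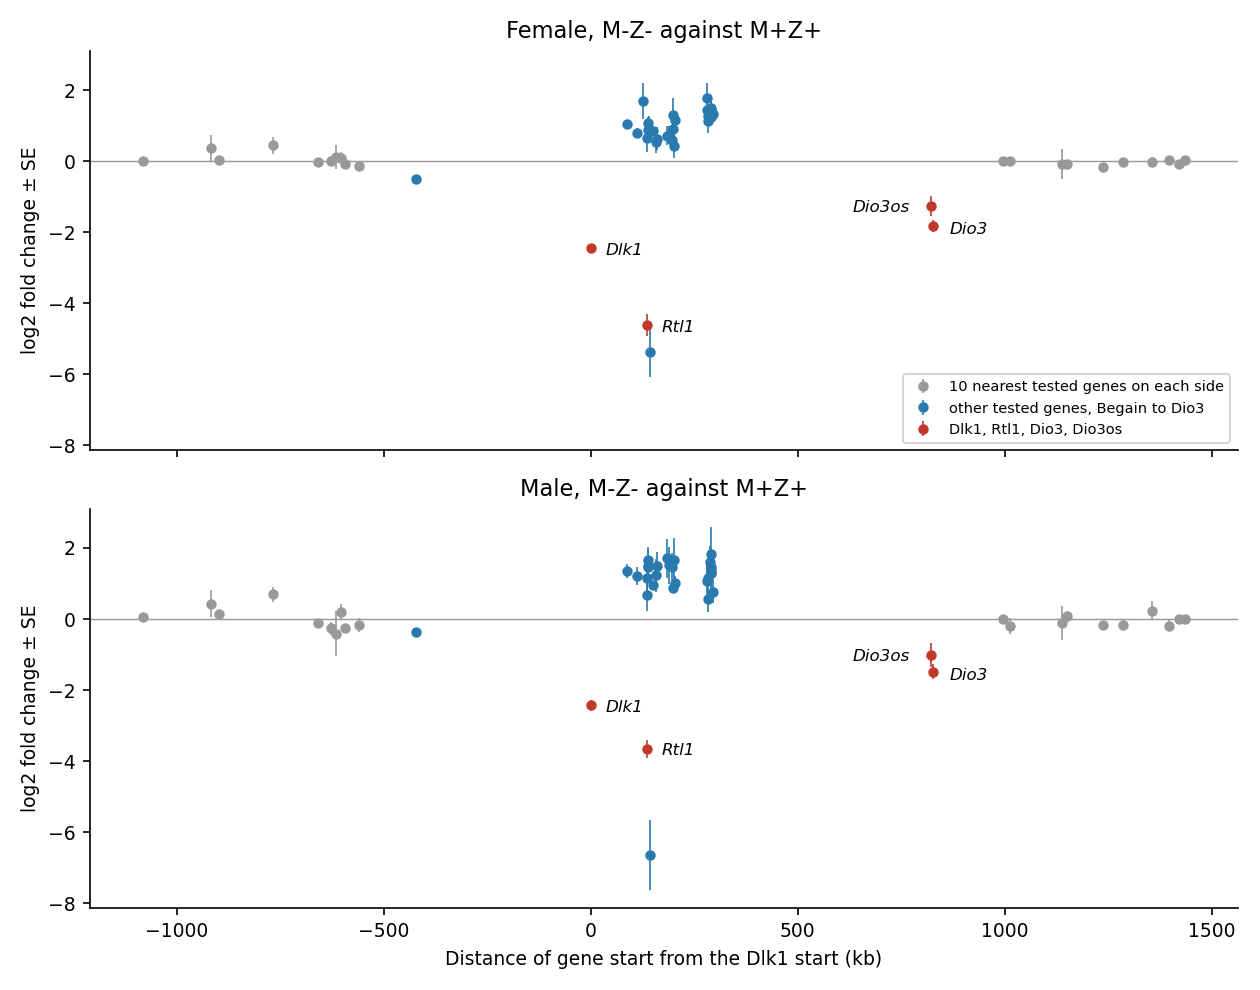
Log2 fold change (± SE) of M-Z- against M+Z+ embryos for tested genes by the distance of their start from that of Dlk1, in kb, in females and males. The 4 named transcripts lie below 0 and the cluster of other transcripts between about Meg3 and Mirg lies above. The flanking genes, of which 0 were called, lie between -0.41 and 0.69. The lowest point in each panel is Mir3071, whose male value is fitted against embryos with 0 counts and is no measure of size.

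The letters TGCCGC were also searched across the domain, on both strands. Between the end of Dlk1 and the start of Meg3, 77.7 kb, they occurred 18 times (0.232 per kb), and from Begain to Dio3, 1249 kb, 122 times (0.0977 per kb). No stretch of 500 bases in the domain held more than 5. The first that held 5 begins 75.5 kb after the Dlk1 start and ends 12.6 kb before Meg3, at chr12:110766506-110766654 of mm9, and is printed on the plus strand from its first to its last hexamer, with the hexamers in capitals.
Stretch between Dlk1 and Meg3: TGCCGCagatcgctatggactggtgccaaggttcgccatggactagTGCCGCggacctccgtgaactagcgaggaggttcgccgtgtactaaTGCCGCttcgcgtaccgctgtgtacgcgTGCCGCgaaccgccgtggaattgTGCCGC
It has 149 bases, 20 CpG and all 5 hexamers on 1 strand. A match of letters is a description of the sequence, and neither binding nor methylation was measured here.

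Genes of the pathways the members act in were followed by lists, beside a background of 0.563% of genes called in either direction in females and 0.39% in males. DLK1 carries repeats like those of Notch ligands. Of 35 Notch pathway genes (ligands, receptors and targets) 0 were called in M-Z- against M+Z+ embryos of either sex. The median log2 fold changes were 0.05 in females and 0.11 in males, and in each sex 28 of the 35 lay above 0 and 7 below. In M-Z+ against M+Z+ embryos 26 lay above 0 and 9 below in females, and 22 and 13 in males. Notch2 was 172 and 173 CPM and Notch1 113 and 114 CPM in M+Z+ and M-Z- females. Notch3 had 0.20 ± 0.0718 (SE, adjusted p = 0.196) in females and 0.45 ± 0.0990 (adjusted p = 0.0813) in males. Of 15 tested genes of fat cell precursors 0 were called (medians 0.01 and 0.09). In females 8 of them lay above 0 and 7 below, and in males 12 and 3. Pdgfra, a surface receptor of these cells, was at 351 and 382 CPM in M+Z+ and M-Z- females. Of 25 tested genes of thyroid hormone transport, metabolism and action 0 were called (medians -0.06 and -0.03). In females 7 of them lay above 0 and 18 below, and in males 11 and 14. Dio2, which activates the hormone that Dio3 inactivates, was 3.76 and 3.62 CPM in M+Z+ and M-Z- females. Of the other retrotransposon-derived genes related to Rtl1, 10 tested in females and 11 in males, 0 were called, and Peg10 was 509 and 525 CPM in M+Z+ and M-Z- females.

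Few markers of cell types known to express the members were called. Of 16 muscle genes 0 were called (medians -0.01 and -0.01). Of 13 hepatoblast genes 1 was called lower, Apob in females (log2 fold change -0.85, adjusted p = 0.0266), and the medians were -0.50 and -0.60, with 10 of 13 below 0 in females and 13 of 13 in males. In males 11 of the 13 were called lower without M-Z- replicate 3 (Apob -1.56, adjusted p = 0.00124, edgeR), a comparison in which 2.9% of all genes were called lower against 0.126% with all embryos. In females the Apob call did not hold without any 1 of 5 embryos (M+Z+ replicates 2 and 6 and M-Z- replicates 1, 2 and 3), with adjusted p up to 0.117. The summed level of the 13 genes was 3623 to 7669 CPM in M+Z+ and 2707 to 4417 CPM in M-Z- females, and 5036 to 7185 and 1830 to 4796 CPM in males. Their medians in M-Z+ against M+Z+ embryos were -0.32 in females (10 of 13 below 0) and 0.02 in males (6 of 13). In M-Z- against M-Z+ embryos they were -0.18 in females and -0.66 in males. Afp, the fetal counterpart of albumin, was 2326 and 1645 CPM in M+Z+ and M-Z- females (log2 fold change -0.50, adjusted p = 0.191), and 2509 and 1464 CPM in males (-0.75, adjusted p = 0.154). Of 11 cartilage genes 0 were called, with medians of -0.37 and -0.21 and with 10 of 11 below 0 in females and 9 of 11 in males. In M-Z+ against M+Z+ embryos the cartilage medians were -0.20 in females (10 of 11 below 0) and -0.04 in males (7 of 11). In M-Z- against M-Z+ embryos they were -0.11 in females (11 of 11 below 0) and -0.15 in males (9 of 11). The part of these cell types in the fall of Dlk1 was not tested.

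Of the other lists, hypoxia had 1 gene called higher in each sex, Car9 (1.53 and 2.53), with medians of 0.23 in females and 1.31 in males and a summed level in M-Z- males of 1315 to 3739 CPM against 1149 to 1204 CPM in M+Z+ males. The Car9 call did not hold in 6 of 10 female and 5 of 7 male comparisons that left out 1 embryo (in females M+Z+ replicates 1 and 5 and each M-Z- embryo, in males each M+Z+ embryo and M-Z- replicate 2). In males 10 of the 10 hypoxia genes were called higher without M-Z- replicate 3, 5 without replicate 1 and 0 without replicate 2, where 2.43%, 0.415% and 0.213% of all genes were. The yolk sac list, which also holds Apob, had that gene called lower in females and 0 genes in males, with medians of -0.39 and -0.49 and with 10 of 10 and 9 of 10 genes below 0. Its medians in M-Z+ against M+Z+ embryos were -0.26 in females and 0.04 in males. The endothelial, neuronal, pituitary and adrenal, placental, decidual and erythroid lists had 0 called. Only 3 of 15 placental and 7 of 12 pituitary and adrenal genes were tested. Of the 10 neuronal genes 10 lay below 0 in M-Z- against M+Z+ females (median -0.14) and 6 in males (-0.04). Of the 10 endothelial genes 7 lay above 0 in females (median 0.12) and 8 in males (0.23). The 15 placental markers summed to only 3.03 to 6.56 CPM per embryo, so these samples held little if any placenta, where RTL1 is best known. Whether these shifts bear on the members was not tested.

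For each member the 5 genes with the most alike pattern were sought among 15474 genes, by the root mean square difference over the 23 embryos of log2(CPM + 0.5) centred on the M+Z+ mean of the sex. For Dlk1 they were Mtarc1 (0.453), Hpd (0.462), Aldh8a1 (0.472), Itih3 (0.608) and Klf14 (0.617). Dio3 lay at 0.602 and Rtl1 at 0.667 from Dlk1, so 3 genes of other chromosomes had a pattern closer to that of Dlk1 than any member did. For Rtl1 they were Zim1 (0.901), Mtarc1 (0.977), Bhmt (1.01), Aldh8a1 (1.02) and Hpd (1.04), all farther than Dlk1. For Dio3 they were Gckr (0.329), Hpd (0.409), Zfp57 (0.412), Phactr2 (0.415) and Blcap (0.415), and Dio3os lay at 0.461. For Dio3os they were Gm20161 (0.218), Blcap (0.237), Tfdp2, Fech and Rgs10, of which 1 was found again with a pseudocount of 0.1. The 23 points fall into 6 groups, and the measure rises with the size of the change.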

How the data were processed

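RNA-seq reads were trimmed by the authors with Trim Galore, aligned end to end and uniquely to mm9 with STAR 2.7.8a and counted per gene with featureCounts (Subread 2.0.1), strand by strand, with a read over several genes counted for each. The deposited tables hold these raw counts, and allelic counts that the authors made by calling strain variants with GATK, masking them in mm9 and splitting reads with SNPsplit. Exonic lengths are a deposited column (unit: bases). Of the female allelic columns, 4 M+Z+ embryos carry no number of their own, and their maternal and paternal columns were joined as neighbours in the table.

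CPM, TPM and P-scores were computed here from the counts. Genotypes were compared within a sex in 1 fit of 3 genotypes with edgeR 4.0.16 (TMM, filterByExpr, quasi-likelihood test) in R 4.3.3, and all 4 members passed the filter. SE is the fold change over the root of F. P-scores needed more than 10 allele reads in an embryo. Allelic shares were tested on counts with an embryo term. On simulated data the expression fit recovered 100% of 4-fold and 96% of 2-fold changes in females, and 97% and 86% in males. The members, the gene lists and the rule for naming genes (members, their domain, called list genes or up to 4 abundant examples, and the 5 most alike genes) were chosen with earlier results of these data known. Alternatives were DESeq2 1.42.0, no filter, other pseudocounts, 2-group fits, replicate blocks and leaving out each embryo. Promoters and mature miRNAs are from RefSeq (GRCm38.p6) and were placed on mm9 by exact match. Rtl1 had no promoter entry.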

Additional observations from a re-analysis of the deposited data

Results flagged for a closer look

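Among 39 groups of values with 4 to 10 embryos, 2 had a single embryo far from the rest, where chance marks about 1 in 20 groups. Both were log2 ratios of 2 members, on the CPM + 0.5 scale, among the 6 M+Z+ females. The ratio of Dlk1 to Rtl1 was 5.97 in replicate 4, above the next highest at 5.61, a gap of 0.636 of the group's range. The ratio of Dlk1 to Dio3 was 6.37 in replicate 1, below the next lowest at 6.67, a gap of 0.633 of the range. The M-Z- females did not overlap either group of ratios on this scale, but with a pseudocount of 0.1 the Dlk1 to Dio3 ratios of the groups overlapped (difference of -0.65, exact permutation p = 0.0143).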

How the results depend on the processing

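For the members, 66 results gave 992 recomputed values, and no called result changed direction. Dlk1, Rtl1 and Dio3 stayed called lower in M-Z- against M+Z+ females in every setting run, with log2 fold changes of -2.48 to -2.33 for Dlk1 and -4.65 to -4.44 for Rtl1. In males Dlk1 (-2.49 to -2.42) and Rtl1 (-3.71 to -3.61) did so too. Leaving out 1 embryo moved Dlk1 between -2.52 and -2.39 in females and -2.64 and -2.27 in males, and Rtl1 between -5.28 and -4.37 and between -4.03 and -3.41. Male Dio3 was not called when M+Z+ embryos numbered below 4 were left out, which kept 1 M+Z+ male, assumed to vary like the other groups (log2 fold change -1.75, adjusted p = 0.147). Female Dio3os was not called with M+Z+ embryos numbered 4 or above (-1.05, adjusted p = 0.144).

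With a replicate block the members called in M-Z- against M+Z+ females were 3 instead of 4, as Dio3os was lost (-1.37, adjusted p = 0.129), and 3 in males as before. In these blocked fits 0.107% of all genes tested were called lower in females and 0.18% in males. The rise of 6430411K18Rik was not called with the block in females (adjusted p = 0.0565) and was called in males (0.0184). Same-numbered embryos deviated together by correlations of -0.249 to -0.0423 in that female pair and 0.0534 to 0.419 in the male pair, so the numbers were not taken to pair embryos. The mean P-score difference of Dlk1 within 2 numbered female pairs was -0.396 and within 3 male pairs -0.421.

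By an exact Kruskal-Wallis test of P-scores adjusted over all autosomal genes, the members called for the allelic share of M-Z- against M+Z+ embryos were 0 instead of 1 in both sexes (Dlk1 adjusted p = 0.638 and 0.682, unadjusted 0.00656 and 0.0229), a test in which 0 genes passed and the smallest adjusted p was 0.112 and 0.318. With only the 2 groups compared, the members called for the paternal output of M-Z- against M-Z+ females were 2 instead of 1, as Dio3os was added (-2.12, adjusted p = 0.0304). The maternal output of Dlk1 in males ranged from -0.16 to 0.35 when 1 embryo was left out and turned sign without M-Z- replicate 3. The causes were not tested. The read number limits Rtl1 in M-Z- embryos, Dio3os throughout and the alleles of Dio3, and the group sizes limit the exact tests.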
